A study of Saccharomyces cerevisiae x Saccharomyces paradoxus and Saccharomyces cerevisiae and Saccharomyces paradoxus with 40 samples.

Results

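The step from the overlap of the meiotic divisions (M1M2) to the end of meiosis II (M2) was examined in the diploid hybrid of the budding yeasts Saccharomyces cerevisiae and Saccharomyces paradoxus. The members were the 4 hybrid libraries labelled M2 and the 4 labelled M1M2, which makes 8 of the 40 libraries of the series, and all 3217 genes of the deposited count table, of which 3094 had enough counts to be tested. Of the 3062 names of open reading frames in it, 3058 end in W, for the plus strand, and 4 in C, so genes of the other strand are nearly all absent. Gene lists are cut accordingly, with 16 of 34 proteasome genes and 22 of 38 early meiosis genes in the table. The hybrid M2 group held cultures of the MATa by MATalpha cross of both species sampled at the end of meiosis II, and the hybrid M1M2 group held cultures of the same cross sampled where meiosis I ends and meiosis II begins. The submitters call the replicates biological, and both directions of the cross are among the hybrid replicates, but the labels do not say which replicate has which. The parental groups used for comparison were S. cerevisiae M2 and M1M2 and S. paradoxus M2 and M1M2, with 3 libraries each. All cultures were grown in YPD, a rich medium, and sporulated in potassium acetate medium, and poly-A RNA of whole cultures was sequenced. By its title, the series is about shifts in the timing of meiotic gene expression between the hybrid and the parental species. Strain names are not given in the sources used here. In a whole culture, a lower share of cells at a stage and less RNA per cell cannot be told apart.

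In yeast, sporulation runs as a cascade. Early genes of recombination and chromosome pairing are switched on by Ime1 through the URS1 element, then the transcription factor Ndt80 switches on middle genes for the divisions and the spore through the mid-sporulation element, and late genes finish the spore wall. That wall is built from inside out, from mannan and glucan to chitosan and, outermost, dityrosine. The anaphase-promoting complex marks cyclins and other proteins for the proteasome, the cell's main protein-degrading machine, and so moves cells through and out of the divisions. Sporulating cells also store glycogen and then break it down late.

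Counts in genes per library were 1649102, 3010120, 117049 and 1109260 in hybrid M2 replicates 1 to 4 and 7688578, 922609, 1080720 and 2055490 in hybrid M1M2 replicates 1 to 4, beside a median of 1348916 over the 40 libraries. M2 replicate 3 was the second most shallow of all. One count there was worth 10.8 CPM (read counts per 1e6 counts of the TMM-scaled library), against 0.359 to 1.25 CPM in the other M2 libraries and 0.129 to 0.903 CPM in the M1M2 libraries. In it 1221 of the 3094 tested genes stood at 0, against 48, 54 and 218 in M2 replicates 1, 2 and 4. Its Spearman correlation across genes with the other M2 libraries was 0.54 to 0.62, while those 3 correlated at 0.798 to 0.926 with each other and the M1M2 libraries at 0.705 to 0.862. The 10 most abundant genes took 14.5 to 19.6% of the counts in M2 and 7.82 to 10.4% in M1M2. All 8 markers of sporulating cells in the middle phase were present in both groups, none of them at 0 in a whole group. Their summed level was 38372 to 86456 CPM at M2 and 25293 to 47861 CPM at M1M2. These ranges overlap, so the markers do not tell the M2 label from the M1M2 label. Of 11 markers of mitotic growth 4 were in the table (CLN1, EGT2, ASH1 and DSE2), at a summed 32.5 to 215 CPM at M2 and 120 to 254 CPM at M1M2. Of 13 markers of haploid cells 7 were in the table, at a summed 1496, 1460, 65 and 2969 CPM in M2 replicates 1 to 4 and 651 to 927 CPM at M1M2, so that all M2 libraries but the shallow replicate 3 were above every M1M2 library. What part these markers have in the results was not tested.

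Between M1M2 and M2 few genes passed the test in the hybrid. Among those that rose were DIT1, which acts in the outer spore wall, SGA1, which breaks down glycogen, the hexose transporter gene HXT10 and the glutamine synthetase gene GLN1, and the 1 gene that fell was the proteasome gene PRE1. Of the 3094 genes tested 21 passed an adjusted p of 0.05 (edgeR quasi-likelihood test), 20 higher and 1 lower at M2. These are 0.679% of the genes tested, 0.646% higher and 0.0323% lower, and 355 genes had an unadjusted p under 0.05. Changes below are log2 values of M2 minus M1M2 ± SE from that fit, with n = 4 libraries per group, and "rose" and "fell" are used only of genes past the threshold. In 18 of the 21 genes the 4 M2 libraries and the 4 M1M2 libraries did not overlap, while over all tested genes 5.98% lay wholly higher at M2 and 5.4% wholly lower. The 21 genes were chosen by a test on these same libraries, so their lack of overlap is no separate support. The calls for 7 genes, DIT1, HXT10, SOL1, SGA1, GLN1, FRA1 and HAB1, held when each of the 8 libraries was left out in turn, and each of the other 14 lost its call without at least 1 of them. Without M1M2 replicate 1, 2, 3 or 4 the fit called 18, 8, 13 and 9 genes, and without M2 replicate 1, 2, 3 or 4 it called 22, 21, 16 and 17.

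**Figure D1:**
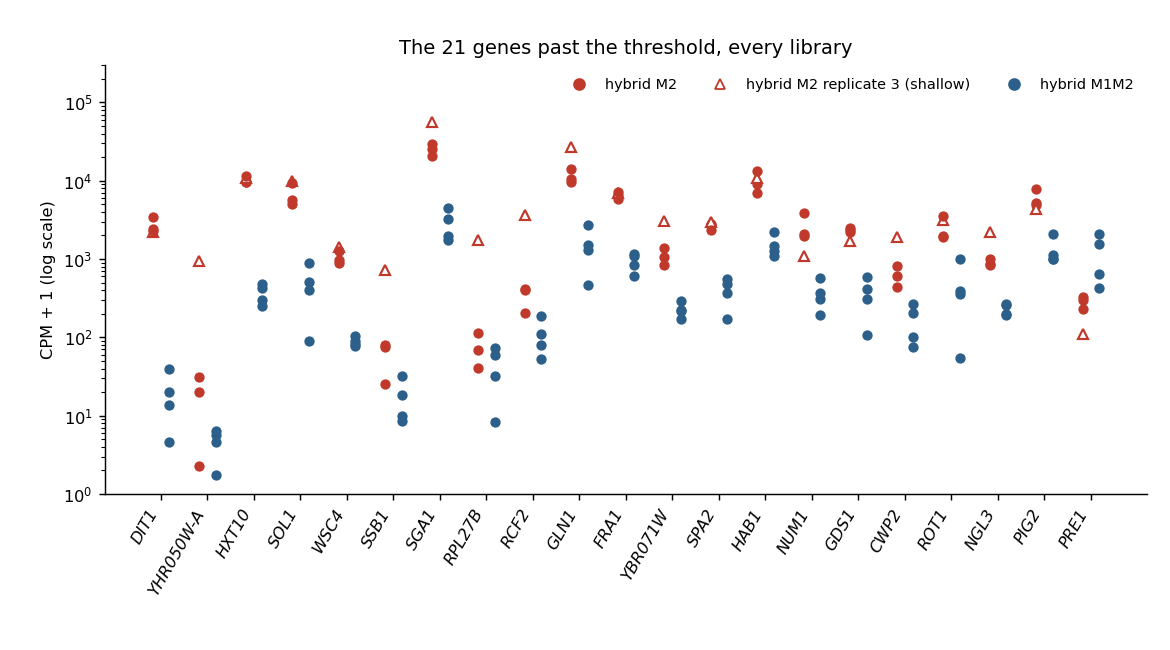
CPM + 1 on a log axis of the 21 genes past the threshold in each library, with hybrid M2 in red to the left of hybrid M1M2 in blue, and the shallow M2 replicate 3 as an open triangle. In YHR050W-A, SSB1 and RPL27B the groups overlap and the triangle stands far above the other M2 libraries.

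DIT1 (YDR403W) makes the precursor of dityrosine, the outermost layer of the spore wall. It had 3477, 2439, 2243 and 2273 CPM in the M2 libraries, against 38.1, 3.61, 12.7 and 19.2 CPM in the M1M2 libraries. All M2 libraries were far above all M1M2 libraries, and those at M1M2 lay within the range at T0, which was 0 to 65.8 CPM. DIT1 rose by 7.11 ± 1.23 (adjusted p = 0.000303, edgeR), and the adjusted p ran from 0.000656 to 0.00509 with each library left out. SGA1 (YIL099W), the glucoamylase made in sporulation that breaks down glycogen, had 20535, 25174, 56946 and 29433 CPM at M2 and 4528, 1746, 3273 and 1951 CPM at M1M2. Every M2 library was above every M1M2 library, with replicate 3 the highest by far. SGA1 rose by 3.52 ± 0.73 (adjusted p = 0.00525, edgeR), and by 3.04 without M2 replicate 3 (adjusted p = 0.027, edgeR). Against M1, SGA1 was already higher at M1M2, by 4.53 ± 0.77 (adjusted p = 1.43e-05, edgeR), in a comparison that called 7.4% of the genes tested, 4.46% as higher, and the value for DIT1 was 0.79 ± 0.97 (adjusted p = 0.804), and both values use the same M1M2 libraries as the step to M2. The difference between the genes was not tested.

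HXT10 (YFL011W), a hexose transporter, had 9735, 9664, 10869 and 11527 CPM at M2, against 485, 303, 427 and 252 CPM at M1M2. Neither group spread by as much as the gap between them, and HXT10 rose by 4.83 ± 0.87 (adjusted p = 0.000567, edgeR). PIG2 (YIL045W), a subunit that directs the Glc7 phosphatase to glycogen synthase, had 4889, 5165, 4302 and 7766 CPM at M2, against 2058, 990, 990 and 1109 CPM at M1M2. The groups did not overlap, and PIG2 rose by 2.1 ± 0.51 (adjusted p = 0.0237, edgeR), though the call was lost without M2 replicate 4 or without M1M2 replicate 2, 3 or 4 (adjusted p 0.108 to 0.158). SOL1 (YNR034W), a relative of the lactonases of the pentose phosphate pathway, had 4976, 5586, 9883 and 9481 CPM at M2, against 899, 87.6, 508 and 407 CPM at M1M2, and rose by 3.97 ± 0.78 (adjusted p = 0.00241, edgeR). Of the 11 genes in the list of glycogen and trehalose, which does not hold PIG2, SGA1 alone passed, beside 0.646% of all genes tested that were called higher. The list's median was 0.47, beside -0.08 for all genes tested. UGP1 (UDP-glucose pyrophosphorylase, 1.15 ± 0.47) and GDB1 (glycogen debranching enzyme, 1.14 ± 0.55) did not pass, while their libraries did not overlap. Of 10 genes of hexose transport and invertase, HXT10 alone passed, beside the same 0.646%.

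GLN1 (YPR035W) is glutamine synthetase, which joins ammonia to glutamate. It had 9717, 10375, 26983 and 14172 CPM at M2, against 2727, 464, 1524 and 1298 CPM at M1M2. The groups did not overlap and M2 replicate 3 was again the highest. GLN1 rose by 3.35 ± 0.55 (adjusted p = 0.000168, edgeR), and by 2.86 without that library (adjusted p = 0.00106). It was the only 1 of 16 nitrogen-use genes to pass, beside 0.646% of all genes tested that were called higher. MEP2 (an ammonium permease, -2.55 ± 0.77) and UGA1 (which breaks down GABA, -1.54 ± 0.53) were lower in all M2 libraries than in all M1M2 libraries without passing (adjusted p = 0.12 and 0.18, edgeR). At T0 GLN1 stood at 5130 to 9490 CPM and at M1 at 1484 to 3892 CPM, so every M2 library was above every hybrid library of an earlier stage.

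FRA1 (YLL029W), which restrains the iron regulon, had 5785, 6611, 6870 and 7123 CPM at M2, against 1080, 610, 1144 and 847 CPM at M1M2. The M2 libraries lay close together, and FRA1 rose by 2.84 ± 0.47 (adjusted p = 0.000168, edgeR). HAB1 (YBR285W) had 9162, 6960, 10750 and 13422 CPM at M2, against 1486, 1250, 1103 and 2189 CPM at M1M2, and rose by 2.74 ± 0.58 (adjusted p = 0.00573, edgeR). WSC4 (YHL028W), a relative of the cell wall stress sensors, rose by 3.71 ± 0.78, and leaving out M1M2 replicate 4 ended its call (adjusted p = 0.0536, edgeR). SPA2 (YLL021W), a scaffold of the polarisome that focuses growth, had 2780, 2682, 2926 and 2313 CPM at M2, against 475, 557, 367 and 168 CPM at M1M2. The groups did not overlap, and SPA2 rose by 2.77 ± 0.65, with the call lost without M1M2 replicate 2, 3 or 4 (adjusted p 0.0611 to 0.165, edgeR). GDS1 (YOR355W), needed for growth on glycerol, rose by 2.62 ± 0.59 and lost its call without M1M2 replicate 2 or 4 (adjusted p 0.136 and 0.0922, edgeR). NUM1 (YDR150W), which anchors dynein and mitochondria at the cell cortex, had 1938, 2107, 1105 and 3870 CPM at M2, against 312, 194, 579 and 371 CPM at M1M2, without overlap. It rose by 2.63 ± 0.56 (adjusted p = 0.00585, edgeR), and without M1M2 replicate 2 its adjusted p was 0.0723.

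The shallow M2 replicate 3 decided 8 of the 21 calls. Without it 16 genes passed, 15 higher and 1 lower, of which 13 were among the 21 and 3 were not. The calls lost were those of YHR050W-A, SSB1, RPL27B, RCF2, YBR071W, CWP2, ROT1 and NGL3. SSB1 (YDL229W), a chaperone of the ribosome, had 79.1, 24.4, 715 and 74.0 CPM at M2, against 7.62, 9.03, 31.4 and 17.6 CPM at M1M2, and the value of replicate 3 rests on 66 counts. Its change was 3.68 ± 0.83 with all libraries and 1.74 without replicate 3 (adjusted p = 0.438, edgeR). RPL27B (YDR471W), a ribosomal protein, had 39.2, 68.2, 1734 and 112 CPM at M2, against 59.3, 7.22, 30.7 and 71.5 CPM at M1M2, with 160 counts in replicate 3. Its change was 3.48 ± 0.90 with all libraries and 0.71 without replicate 3 (adjusted p = 0.841, edgeR). YHR050W-A, of no assigned role, had 943 CPM from 87 counts in replicate 3 and 1.25 to 30.4 CPM in the other M2 libraries, against 0.748 to 5.44 CPM at M1M2, and its change was 6.01 ± 1.47 with replicate 3 and 2.11 without it (adjusted p = 0.691, edgeR). RCF2 (YNR018W), which helps assemble respiratory supercomplexes, had 3684 CPM in replicate 3 and 204 to 419 CPM in the other M2 libraries, against 51.5 to 184 CPM at M1M2. SSB1 and RPL27B each have a nearly identical copy in the genome, so how reads were split between the copies is uncertain.

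For the other 4 genes lost without replicate 3 the size of the change moved less. The change of YBR071W was 2.80 ± 0.73 with it and 2.19 without it (adjusted p = 0.263, edgeR). ROT1 (YMR200W), a chaperone of the endoplasmic reticulum, had 2.54 ± 0.61 and 2.4 (adjusted p = 0.0526), NGL3 (YML118W), a putative nuclease, had 2.42 ± 0.62 and 1.86 (adjusted p = 0.239), and CWP2 (YKL096W-A), a mannoprotein of the vegetative cell wall, had 2.55 ± 0.64 and 1.79 (adjusted p = 0.286). In these 4 genes and in RCF2 the groups did not overlap. Each of the 8 genes also lost its call without 2 or more of the M1M2 libraries, with adjusted p between 0.0616 and 0.263, and YBR071W, ROT1 and NGL3 also without M2 replicate 4 (0.0538 to 0.0819). The calls gained without replicate 3 were YML090W (2.79 ± 0.68, adjusted p = 0.0325), ECM8 (2.52 ± 0.64, adjusted p = 0.0478) and CCC2, a copper-transporting ATPase (2.34 ± 0.57, adjusted p = 0.034). YML090W had 0 CPM in replicate 3, where the limit of 3 counts is 32.5 CPM, and 4074, 5447 and 7548 CPM in M2 replicates 1, 2 and 4, against 325, 961, 1376 and 285 CPM at M1M2. Replicate 3 was the highest M2 library in 12 of the 21 genes called with it, and it was above the other M2 libraries in 578 of all 3094 tested genes and below them in 1963.

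**Figure D2:**
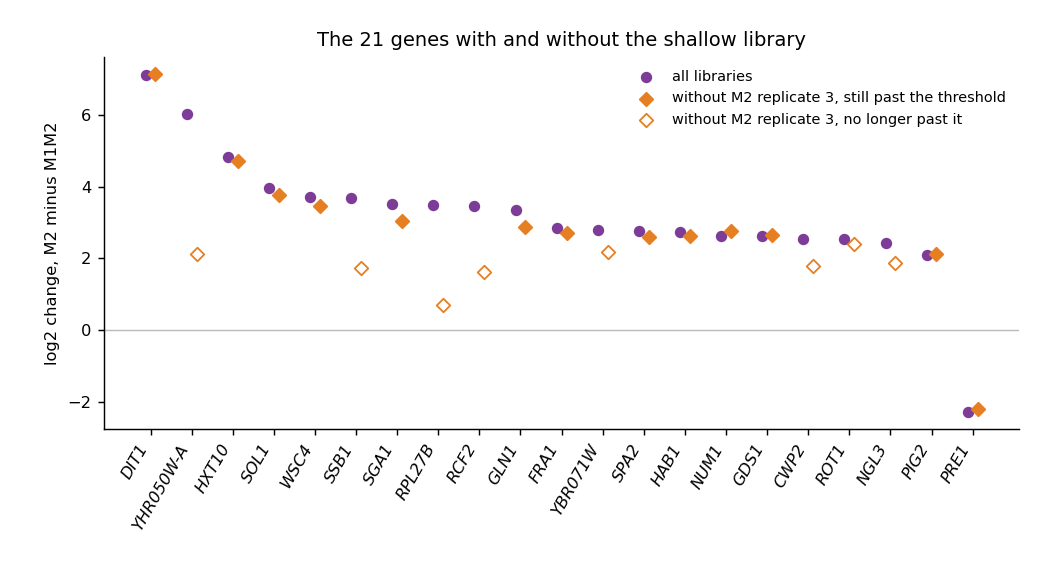
Log2 change (M2 minus M1M2) of the 21 genes in the fit with all libraries (circles) and without hybrid M2 replicate 3 (diamonds, open where the gene no longer passed). The value of RPL27B dropped to 0.71 and that of YHR050W-A to 2.11 without that library, while DIT1 and HXT10 hardly moved.

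PRE1 (YER012W), a subunit of the proteasome's core particle, was the single gene that fell. It had 301, 226, 108 and 324 CPM in the M2 libraries, against 427, 1557, 643 and 2096 CPM in the M1M2 libraries, and no M2 library reached the lowest at M1M2. The 108 CPM of replicate 3 rest on 10 counts. PRE1 changed by -2.28 ± 0.54 (adjusted p = 0.0178, edgeR) and by -2.20 without replicate 3 (adjusted p = 0.041), and the call was lost without M2 replicate 2 (0.0626) or M1M2 replicate 2 (0.0723) or 4 (0.161). All 16 proteasome genes tested had a negative change, as had 52.3% of all genes tested, with a median of -1.41, and this held with each library left out in turn and with size factors in place of TMM (median -1.07). Only PRE1 passed. In 12 of the 16 every M2 library was below every M1M2 library, and in 13 without replicate 3, beside 5.4% and 6.92% of all tested genes. Summed over the 16 genes, the level was 9377, 8912, 9319 and 8340 CPM at M2, against 17433, 24084, 17174 and 27323 CPM at M1M2. The 2 groups did not overlap in this sum, and the M2 libraries, replicate 3 included, lay within a narrow band. It was 9306 to 24028 CPM at T0 and 11284 to 14208 CPM at M1. RPT3 (YDR394W), an ATPase of the regulatory cap, had 367, 433, 444 and 289 CPM at M2, against 831, 1539, 868 and 1870 CPM at M1M2 (-1.74 ± 0.53, adjusted p = 0.128, edgeR). PRE2 (YPR103W), which carries the chymotrypsin-like site, had 659, 717, 466 and 363 CPM at M2, against 1468, 2450, 1255 and 1590 CPM at M1M2 (-1.61 ± 0.50, adjusted p = 0.132, edgeR).

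Proteasome genes of yeast share the element bound by Rpn4, GGTGGCAAA, which was looked for after the values were seen. It occurred on either strand in 14 of the 16 windows of the proteasome genes (87.5%) from 250 bases before to 50 after the start codon, in 36 of the 2748 windows of tested genes (1.31%) and in 1.2% of 6020 RefSeq protein-coding genes. The windows of PRE1, the gene that fell, and of RPT3 are shown from the RefSeq R64 assembly of S. cerevisiae, on the plus strand, with the element in capitals. The build of the deposited counts is not given in the sources used here, and the S. paradoxus allele of each window is not shown.
PRE1, chrV:177585-177884: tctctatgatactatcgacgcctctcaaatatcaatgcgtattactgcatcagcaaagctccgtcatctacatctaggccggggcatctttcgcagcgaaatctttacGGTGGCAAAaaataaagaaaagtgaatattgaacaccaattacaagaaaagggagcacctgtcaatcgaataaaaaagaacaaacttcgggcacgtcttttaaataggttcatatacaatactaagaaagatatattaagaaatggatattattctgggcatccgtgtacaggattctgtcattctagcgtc
RPT3, chrIV:1261431-1261730: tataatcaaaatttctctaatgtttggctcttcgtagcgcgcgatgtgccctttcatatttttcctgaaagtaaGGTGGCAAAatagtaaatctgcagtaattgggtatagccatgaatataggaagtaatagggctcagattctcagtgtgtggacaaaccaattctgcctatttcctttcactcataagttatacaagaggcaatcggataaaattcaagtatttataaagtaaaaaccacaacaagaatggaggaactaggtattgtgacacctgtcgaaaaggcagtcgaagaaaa
The element starts 142 bases before the start codon in PRE1 and 176 before it in RPT3. PRE5 and RPN10, the 2 members with no match in this window, had changes of -1.31 ± 0.57 and -0.73 ± 0.59.

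Early meiotic genes as a group lay lower at M2, with no member past the threshold. Of the 22 tested 20 had a negative change, beside 52.3% of all genes tested, with a median of -1.05. In 8 of them every M2 library was below every M1M2 library, beside 5.4% of all genes tested. Their summed level was 20214 to 24634 CPM at M2, against 30218 to 48996 CPM at M1M2, without overlap. DMC1 (YER179W), the meiotic recombinase, had 2083, 1840, 2341 and 2503 CPM at M2, against 4190, 5260, 4134 and 5924 CPM at M1M2. Its groups did not overlap, and its change of -1.15 ± 0.63 did not pass (adjusted p = 0.484, edgeR). HOP1 (YIL072W), which builds the axis of paired chromosomes, had 1014, 965, 97.5 and 1024 CPM at M2, against 2558, 1696, 2116 and 1199 CPM at M1M2 (-1.28 ± 0.63, adjusted p = 0.43, edgeR). SPO13 (YHR014W), which helps to hold sister centromeres together in meiosis I, had 468, 502, 43.3 and 286 CPM at M2, against 815, 1478, 1230 and 993 CPM at M1M2 (-1.78 ± 0.81, adjusted p = 0.383, edgeR). IME2 (YJL106W), the kinase that promotes meiotic entry, overlapped between the groups, at 4779 to 8253 CPM at M2 and 5307 to 14910 CPM at M1M2 (-0.49 ± 0.56). The median of the early genes stayed negative with each library left out and was -0.66 with size factors. Of 10 genes of cohesion and chromosome segregation 8 had a negative change (52.3% of all genes tested), with a median of -1.13 and none past the threshold, among them the cohesin subunit SMC1 (-1.42 ± 0.59) and the cohesin loader SCC2 (-1.44 ± 0.59), both without overlap.

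Middle genes lay somewhat higher at M2, again with none past the threshold. Of 21 tested 18 had a positive change, beside 47.6% of all genes tested, with a median of 0.86, and of 1.29 with size factors. In 8 every M2 library was above every M1M2 library, beside 5.98% of all genes tested. AMA1 (YGR225W), the meiotic activator of the anaphase-promoting complex, had 12979, 13883, 21337 and 20686 CPM at M2, against 7466, 1399, 3691 and 2956 CPM at M1M2. All M2 libraries were above all M1M2 libraries, and the change of 2.15 ± 0.67 had an adjusted p of 0.132 (edgeR), which was 0.0259 with size factors. CLB3 (YDL155W), the B-type cyclin of meiosis II, had 2751, 2771, 3663 and 3672 CPM at M2, against 1249, 339, 1319 and 1111 CPM at M1M2 (1.68 ± 0.55, adjusted p = 0.165, and 0.0283 with size factors). NDT80 (YHR124W), the regulator of the middle genes, had 6096, 5693, 7141 and 7231 CPM at M2, against 5728, 4193, 3801 and 4300 CPM at M1M2 (0.54 ± 0.56), and the groups overlapped by M1M2 replicate 1 alone. SSP1 (YHR184W), a coat protein of the growing spore membrane, and the cyclin CLB1 (YGR108W) had changes of 0.06 ± 0.70 and 0.08 ± 0.71, and in both M2 replicate 3 was the lowest M2 library by far, at 260 CPM for SSP1 and 32.5 CPM for CLB1. Of 15 spore wall genes DIT1 alone passed, beside 0.646% of all genes tested that were called higher. In this list 14 had a positive change (47.6% of all genes), with a median of 0.92, and in 8 all M2 libraries were above all M1M2 libraries (5.98% of all genes). SPR1 (YOR190W), a glucanase of sporulation, had a change of 1.92 ± 0.65, and DTR1 (YBR180W), which carries the dityrosine precursor across the spore membrane, one of 1.49 ± 0.69. Of the 6 late sporulation genes DIT1 and SGA1 passed, beside the same 0.646%.

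**Figure D3:**
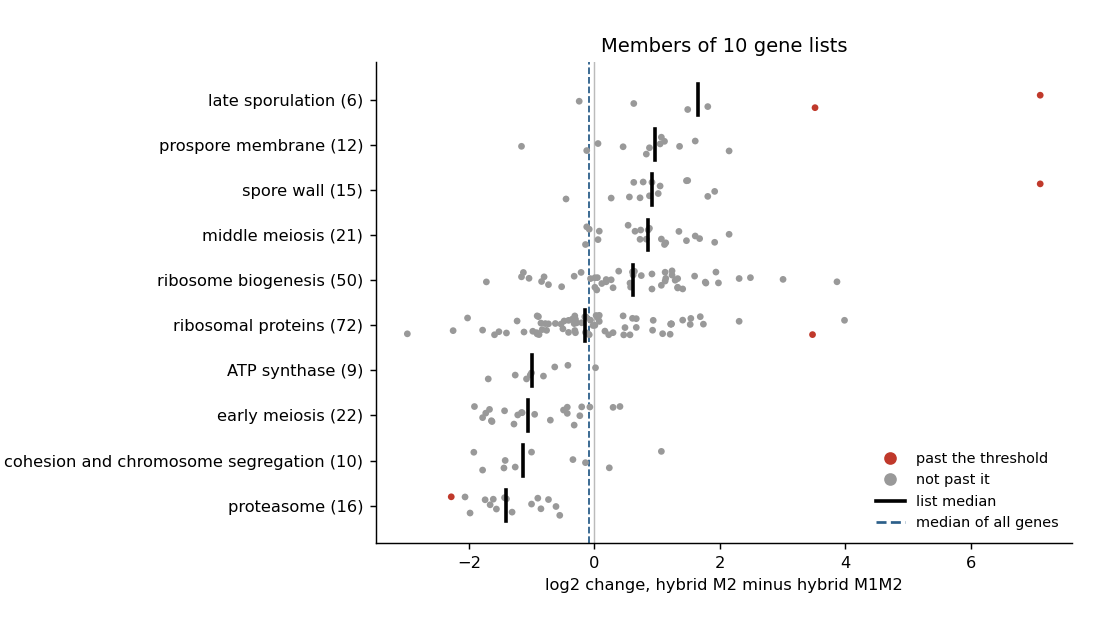
Log2 change (M2 minus M1M2) of each member of 10 gene lists, with the number tested in parentheses, genes past the threshold in red, the list median as a black bar and the median of all genes tested (-0.08) as a dashed line. All 16 proteasome genes lie below 0, and DIT1 lies at 7.11 in 2 lists.

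None of the other lists had more than 1 member past the threshold. Of 72 ribosomal protein genes RPL27B alone passed, on the strength of replicate 3, beside 0.646% of all genes tested that were called higher, and the median was -0.14. Of 50 ribosome biogenesis genes none passed, 39 had a positive change (47.6% of all genes tested) and the median was 0.62. In 4 of them the groups did not overlap, and in 15 without replicate 3, beside 5.98% and 12.6% of all tested genes on the higher side. Of 9 ATP synthase genes 8 had a negative change, beside 52.3% of all genes tested (median -1.0, none past the threshold), led by INH1, the inhibitor of the synthase, at -1.69 ± 0.64. In 0 of the 9 were all M2 libraries below all M1M2 libraries, beside 5.4% of all genes tested. Acetate use, the TCA cycle, nitrogen use and core histones had medians of -0.13, -0.07, -0.18 and -0.23, and the sign of each turned with size factors (0.16, 0.33, 0.39 and 0.50), that of acetate use also without M1M2 replicate 1 (0.22), and those of acetate use and core histones also without M2 replicate 1 (0.02 and 0.05). Of 14 stress and chaperone genes none passed, and HSP12 (YFL014W), a stress protein of the membrane, had a change of -0.17 ± 0.60. Of 10 haploid and mating genes none passed, 9 had a positive change (47.6% of all genes) and the median was 0.99. In 1 of them, STE12, a transcription factor of mating, all M2 libraries were above all M1M2 libraries, and without replicate 3 this held for 6 of the 10, beside 5.98% and 12.6% of all genes tested. With size factors in place of TMM the median of all genes was 0.10, against -0.08, and the median shift of a gene was 0.11. The shift was larger in DIT1 (7.54, against 7.11), HXT10 (5.30, against 4.83), SGA1 (4.24, against 3.52) and GLN1 (4.08, against 3.35). With size factors 87 genes passed, against 21.

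Windows from 250 bases before to 50 after the start codon were also read for the elements of the sporulation cascade. The core of the mid-sporulation element, CACAAA on either strand, was in 7 of the 20 windows of genes that rose (35%), in 18.6% of the windows of tested genes and in 16 of 21 middle genes (76.2%). The only match in PIG2 and 1 of 2 in YBR071W lie in the coding part, 19 and 32 bases after the start of the start codon. SGA1 and GLN1 have it, as shown from the R64 assembly on the plus strand with the matches in capitals (TTTGTG is the match on the other strand), while the windows of DIT1 and HXT10 do not.
SGA1, chrIX:177754-178053: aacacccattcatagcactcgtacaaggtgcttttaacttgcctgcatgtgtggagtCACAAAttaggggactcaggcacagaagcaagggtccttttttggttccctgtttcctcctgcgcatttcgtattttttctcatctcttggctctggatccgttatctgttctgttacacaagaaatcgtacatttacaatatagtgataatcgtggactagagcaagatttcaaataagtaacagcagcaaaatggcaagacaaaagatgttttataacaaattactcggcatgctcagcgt
GLN1, chrXVI:641958-642257: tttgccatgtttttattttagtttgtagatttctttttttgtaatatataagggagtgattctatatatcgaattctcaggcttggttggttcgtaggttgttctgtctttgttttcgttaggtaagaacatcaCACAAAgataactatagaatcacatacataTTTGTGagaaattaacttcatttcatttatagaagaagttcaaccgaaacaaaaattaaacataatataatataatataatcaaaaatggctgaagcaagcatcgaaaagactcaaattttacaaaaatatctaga
The match starts 193 bases before the start codon in SGA1, and at 116 and 86 bases before it in GLN1. The core of URS1, GGCGGC, was in 13 of 22 windows of early genes (59.1%), in 5.31% of those of tested genes and in none of the 20 of genes that rose. The core of the stress element, AGGGG, was in 4 of those 20 (20%) and in 22.6% of the windows of tested genes. A match is a stretch of letters in a window and was not tested as a binding site.

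Allele counts of the hybrid gave the share of each parental genome in the step. No gene passed in the test of whether the S. paradoxus and S. cerevisiae alleles changed by a different factor between M1M2 and M2 (0% of 2997 genes, edgeR with the library as a block), and 68 had an unadjusted p under 0.05. The S. paradoxus allele of DIT1 held 48.4 ± 3.70% of its allele counts at M2 and 52.8 ± 14.8% at M1M2 (mean ± SD over 4 libraries). The share for SGA1 was 43.4 ± 1.3% at M2 and 56.4 ± 5.26% at M1M2, and for GLN1 it was 61.3 ± 2.65% at M2 and 60.4 ± 2.51% at M1M2. Both alleles of these 3 genes were thus present at M2. The lowest adjusted p belonged to NUM1 (0.203), whose S. paradoxus allele held 16.1, 14, 0 and 9.53% of the allele counts in M2 replicates 1 to 4, against 69.7, 60.5, 47.7 and 56.5% in M1M2 replicates 1 to 4. The 0 in M2 replicate 3 is 0 of 102 counts, which allows a share of up to 2.94% from counting error alone, and the groups did not overlap with or without it. The allele difference of NUM1 (log2, S. paradoxus minus S. cerevisiae allele) had a change of -3.97 ± 0.91 between M1M2 and M2. Scaled to each allele's own total, the S. cerevisiae allele of NUM1 had a median of 3767 CPM at M2 and 282 CPM at M1M2, while the S. paradoxus allele had 585 CPM at M2 and 422 CPM at M1M2. In a comparison of the alleles at M2 alone, added after these values were seen, NUM1 was 1 of 46 genes called (1.53% of 2997), with the S. paradoxus allele at -3.56 ± 0.69 (adjusted p = 0.00158, edgeR), and at M1M2 its value was 0.40 ± 0.60 (adjusted p = 0.947). In the parents NUM1 rose by 2.35 ± 0.66 in S. cerevisiae (adjusted p = 0.0136, edgeR) and had a change of 0.15 ± 0.61 in S. paradoxus (adjusted p = 0.981).

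The step between the same 2 labels in the parents was set against that of the hybrid. At M1M2 NDT80 stood at 3801 to 5728 CPM in the hybrid, 89.7 to 2330 CPM (median 270) in S. cerevisiae and 1198 to 3815 CPM in S. paradoxus. Whether the M1M2 label marks the same point of sporulation in each genotype was not tested. In S. cerevisiae the step moved 282 of 3094 genes (9.11%), 140 higher (4.52%) and 142 lower (4.59%). In S. paradoxus none passed, with 186 at an unadjusted p under 0.05. The change in the hybrid differed from that in S. cerevisiae for 88 genes (2.84%), 66 of them higher and 22 lower in the hybrid, and with size factors for 113, 99 higher and 14 lower. DIT1, HXT10, SOL1 and SGA1 rose in S. cerevisiae too, by 5.65 ± 1.54, 5.88 ± 1.14, 3.64 ± 0.97 and 3.55 ± 0.88, and their differences between hybrid and parent, 1.46, -1.04, 0.34 and -0.03, did not pass. The value for HXT10 rests on the shallow S. cerevisiae M1M2 replicate 2, since without that library the hybrid change was lower than that of S. cerevisiae past the threshold (-4.01, adjusted p = 0.0327, edgeR), and likewise without the 4 shallow libraries (-4.07, adjusted p = 0.0163). For SGA1 the difference without that library was -1.49 (adjusted p = 0.646). In level, SGA1 at M2 was 20535 to 56946 CPM in the hybrid, above the 4755 to 9942 CPM in S. cerevisiae and the 3881 to 8345 CPM in S. paradoxus, and this difference in level was not tested. The hybrid counts hold only reads given to an allele, so levels of hybrid and parents may not compare directly, here and below.

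Middle and spore wall genes were among those whose change was lower in the hybrid. In S. cerevisiae 16 of 21 middle genes and 12 of 15 spore wall genes rose in this step, beside 4.52% of all tested genes. The hybrid change was lower past the threshold for 4 of the 21 and 5 of the 15, beside 0.711% of all tested genes. SMK1 (YPR054W), the MAP kinase of spore wall assembly, had 2809, 2489, 3663 and 2874 CPM at hybrid M2 and 1625, 1765, 1623 and 2102 CPM at hybrid M1M2. In S. cerevisiae it had 1495, 6676 and 5454 CPM at M2 and 15.6, 482 and 32.3 CPM at M1M2, where the 482 CPM is from the library of 23453 counts. The 2 genotypes overlapped at M2, and at M1M2 every hybrid library was above every S. cerevisiae library. The change of SMK1 was 0.73 ± 0.73 in the hybrid and 5.95 ± 1.18 in S. cerevisiae, a difference of -5.21 ± 1.35 (adjusted p = 0.0222, edgeR), which was lost without S. cerevisiae M1M2 replicate 1 or 3 or M2 replicate 2 or 3. CDC26 (YFR036W), a subunit of the anaphase-promoting complex, had 553 to 877 CPM at hybrid M2 and 382 to 1011 CPM at hybrid M1M2, with overlap. In S. cerevisiae it had 726, 2191 and 2002 CPM at M2 and 35.4, 0 and 30.3 CPM at M1M2. Its difference was -5.50 ± 1.18 (adjusted p = 0.00711, edgeR), and it passed with each of the 14 hybrid and S. cerevisiae libraries left out in turn. The chitin deacetylase CDA1 (-4.27 ± 1.03), the wall glucanosyltransferase GAS4 (-3.77 ± 0.97), the wall gene MUM3 (-4.06 ± 1.2), the activator CDC20 (-3.64 ± 1.05), the RNA-binding proteins PES4 (-3.61 ± 1.01) and MIP6 (-3.37 ± 0.93) and the spore membrane coat protein DON1 (-3.09 ± 0.84) followed the same order, each with a change of -0.45 to 1.42 in the hybrid and of 3.60 to 5.07 in S. cerevisiae. Without the shallow S. cerevisiae M1M2 replicate 2 all 9 of these genes passed, and without S. cerevisiae M1M2 replicate 1 CDC26 alone did (adjusted p of the other 8 between 0.0558 and 0.157, edgeR). The number of genes lower in the hybrid was 50 without M1M2 replicate 2 of S. cerevisiae and 6 without its M1M2 replicate 1. Without S. cerevisiae M2 replicate 3, CDC20, DON1, MIP6, PES4, SMK1 and MUM3 lost the call (adjusted p 0.0597 to 0.0884). Without its M2 replicate 2, CDC20, GAS4, DON1, MIP6, SMK1 and MUM3 did (0.0648 to 0.0813). Hybrid libraries mattered too. Without hybrid M2 replicate 2 CDC20, DON1, MIP6, PES4 and MUM3 lost it (0.0545 to 0.0779), and without hybrid M1M2 replicate 1 CDC20, MIP6, PES4 and MUM3 (0.0717 to 0.0748). Without hybrid M2 replicate 3 MUM3 did (0.0561). Some also lost it without other libraries.

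**Figure D4:**
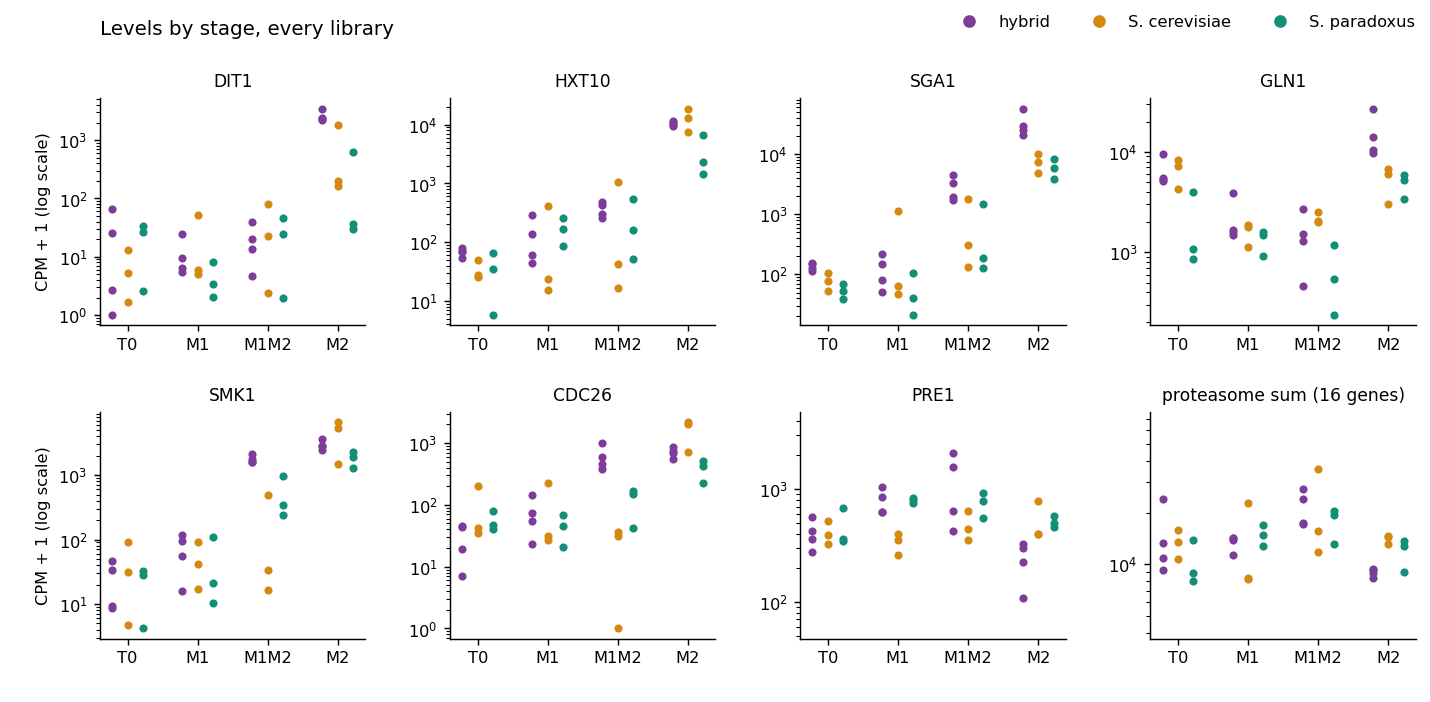
CPM + 1 on a log axis in every library at 4 stages of sporulation, with the hybrid in purple left of S. cerevisiae in orange and S. paradoxus in green. Hybrid SMK1 and CDC26 at M1M2 lie above S. cerevisiae. DIT1 is high at M2 in all hybrid libraries, while in S. paradoxus it lies at 29.5, 35.2 and 633 CPM there. The hybrid proteasome sum of 8340 to 9377 CPM at M2 lies below its 17174 to 27323 CPM at M1M2.

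Genes of carbon metabolism were among those whose change was higher in the hybrid. Of 12 genes of acetate use 7 fell in S. cerevisiae (4.59% of all tested genes) and none passed in the hybrid. The difference passed for 6, beside 2.13% of all tested genes. In 3 of the 12 all hybrid M2 libraries were above all hybrid M1M2 libraries, and in 1 below, beside 5.98% and 5.4% of all tested genes. PCK1 had 12277 to 17501 CPM at hybrid M2 and 3323 to 4300 CPM at hybrid M1M2. In S. cerevisiae PCK1 overlapped, at 4535 to 8473 CPM at M2 and 6982 to 30291 CPM (median 7939) at M1M2. Its difference of 3.11 was 2.08 without the shallow S. cerevisiae M1M2 replicate 2 (adjusted p = 0.227, edgeR). The call of PCK1 was lost without 7 of the 14 hybrid and S. cerevisiae libraries, each left out in turn. PGK1 (YCR012W), the glycolytic phosphoglycerate kinase, had 79.7, 147, 65.0 and 237 CPM at hybrid M2 and 258, 14.4, 131 and 189 CPM at hybrid M1M2, and 180 to 504 CPM at M2 and 2942 to 9883 CPM at M1M2 in S. cerevisiae. Its changes were -0.14 ± 0.55 in the hybrid and -4.36 ± 0.72 in S. cerevisiae, with a difference of 4.23 ± 0.87 (adjusted p = 0.00711, edgeR). GPH1, glycogen phosphorylase (difference 4.11 ± 0.86), and YGP1, a secreted glycoprotein of starvation (4.02 ± 0.90), passed like PGK1, CDC26 and the splicing factor SYF2 with each of the 14 libraries left out, though SYF2 stood at 0 to 1.4 CPM at S. cerevisiae M2. These 5 are the ones that did so among the 40 named genes with a difference. The other 35 each lost the call without at least 1 library. COX5A (respiratory chain, 3.99 ± 0.97) was 1.59 without S. cerevisiae M1M2 replicate 2 (adjusted p = 0.465, edgeR), the glycogen synthase GSY2 (4.01 ± 0.95) was 1.99 (adjusted p = 0.278), and 21 of the 40 lost the call in all. Without that library 73 genes differed, 23 higher and 50 lower in the hybrid, and 40 of them were among the 88. Without S. cerevisiae M2 replicate 2 or 3, 24 and 30 of the 40 named genes lost the call, and 40 and 26 of all genes differed. Without hybrid M2 replicate 3 there were 61, of which 35 were higher and 26 lower.

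**Figure D5:**
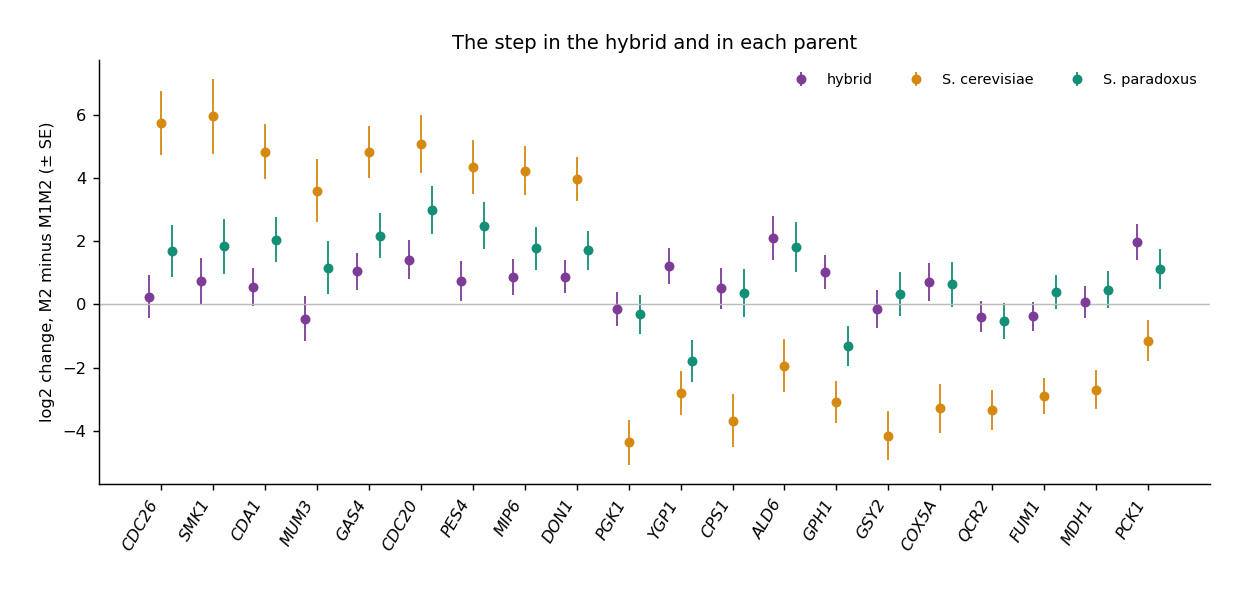
Log2 change (M2 minus M1M2) ± SE of 20 genes whose hybrid step differed from that of S. cerevisiae, with the hybrid in purple, S. cerevisiae in orange and S. paradoxus in green. From CDC26 to DON1 the S. cerevisiae change is 3.60 to 5.95 and the hybrid change at most 1.42, and from PGK1 to PCK1 the S. cerevisiae change is negative.

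The hybrid step did not differ from that of S. paradoxus for any gene past the threshold (0% of 3094 genes), with 102 at an unadjusted p under 0.05 and 8 called by DESeq2. The lowest adjusted p was 0.897, which SSB1 had (4.21 ± 1.19). With SEs of the difference near 1, changes that differ several-fold could go undetected. The difference was 3.78 ± 1.51 for DIT1, which had a change of 3.33 ± 1.2 in S. paradoxus, with M2 libraries at 29.5, 35.2 and 633 CPM. It was 1.06 ± 1.14 for HXT10, 0.22 ± 1.01 for SGA1, 0.46 ± 0.77 for GLN1, -1.72 ± 0.79 for PRE1, -1.11 ± 1.11 for SMK1 and 2.48 ± 0.82 for NUM1. GLN1 had the lowest adjusted p of the step within S. paradoxus (2.88 ± 0.63, adjusted p = 0.0688, edgeR), and its change in S. cerevisiae was 1.25 ± 0.60. Medians of the 21 middle genes were 0.86 in the hybrid, 3.51 in S. cerevisiae and 1.88 in S. paradoxus. Those of the 15 spore wall genes were 0.92, 4.52 and 2.18. The hybrid change was below that of S. paradoxus in 19 of the 21 and 13 of the 15, beside 1553 of all 3094 genes tested. For the proteasome the medians of the 16 genes were -1.41 in the hybrid, -0.23 in S. cerevisiae and -0.56 in S. paradoxus, and no member's change differed past the threshold between the hybrid and either parent. At M2 the summed proteasome level was 8340 to 9377 CPM in the hybrid, 13116 to 14635 CPM in S. cerevisiae and 9062 to 13626 CPM in S. paradoxus.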

How the data were processed

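Poly-A RNA of whole sporulating cultures was sequenced, and the authors deposited raw read counts per gene for each library, plus raw counts per allele for the hybrid, in which reads given to neither allele have no place. The hybrid counts per gene equalled the sum of both allele counts in 55408 of 55408 values checked, so they too hold only reads given to an allele. Whether the parental counts were limited in the same way is not given in the sources used here. Bowtie 0.12.7 and DESeq 1.8.3 are named in the submitters' processing notes, while the counting tool, strand setting and genome build are not given in the sources used here, so overlapping genes on opposite strands may share counts. Features that name no gene (0.392 to 4.95% of counts) were left out. The counts were tested with edgeR 4.0.16 (R 4.3.3, limma 3.58.1): TMM scaling, filterByExpr by group, 1 quasi-likelihood model of the 12 groups of genotype and stage over 40 libraries, and Benjamini-Hochberg adjustment over the genes tested with a threshold of 0.05. The script was tested on simulated data. CPM values are counts per 1e6 counts of the TMM-scaled library. Allele counts were tested with the library as a block. Alternatives were size factors, no filter, DESeq2 1.42.0, voom with quality weights, fewer libraries and a replicate block.

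The rule for named genes took the 10 largest changes per direction past the threshold with a mean count of at least 20, up to 4 called members per list, 18 sporulation and control genes in any case, and up to 5 per step difference. Other called genes, and list members that did not pass, were picked for naming with their values known. The members, the 31 gene lists and the motifs were chosen with earlier results of these data known, so no list is independent evidence of its direction. Promoter windows of 300 bases were read from RefSeq R64. Same-numbered M2 and M1M2 libraries did not deviate together (correlations of -0.139 to -0.00567), so the numbers were not taken to pair them. Limits given for values at 0 cover counting error only, while SEs and SDs include the spread between libraries.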

Additional observations from a re-analysis of the deposited data

Results flagged for a closer look

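In each hybrid group of 4 libraries, the highest and lowest value of each of the named genes was compared with the rest, and 10 of 144 groups had a value standing far from the others. Chance flags about 1 in 20 groups. Of these, 5 are low or zero values in the shallow M2 replicate 3: PHO12 at 0 CPM, CLB1 at 32.5 CPM, MDH1 at 108 CPM, SSP1 at 260 CPM and HOP1 at 97.5 CPM. The acetaldehyde dehydrogenase gene ALD6 stood highest in M2 replicate 4, at 360 CPM. In M1M2 replicate 1 the RNA-binding protein gene PES4 at 7518 CPM and PIG2 at 2058 CPM stood above the others, and in M1M2 replicate 2 CLB3 stood below them at 339 CPM. The 0.129 CPM of the cell separation gene EGT2 in M1M2 replicate 1 is 1 count against 0 in the other M1M2 libraries and carries no information.

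The step from M1M2 to M2 differed between the hybrid and S. cerevisiae for 40 named genes, by the test of the difference itself (log2 change in the hybrid minus that in S. cerevisiae). Of these, 9 were lower in the hybrid: CDC26 (-5.50), SMK1 (-5.21), CDA1 (-4.27), MUM3 (-4.06), GAS4 (-3.77), CDC20 (-3.64), PES4 (-3.61), MIP6 (-3.37) and DON1 (-3.09). In carbon and energy metabolism the change was higher in the hybrid for YAT1 (4.58), PGK1 (4.23), GPH1 (4.11), ALD6 (4.04), GSY2 (4.01), COX5A (3.99), CYT1 (3.14), PCK1 (3.11), QCR2 (2.95), SFC1 (2.95), GDH3 (2.88), MDH1 (2.77) and FUM1 (2.53). In translation it was higher for RPL2B (5.17), SSB1 (4.46), TEF4 (4.33), RPS0A (3.80), HYP2 (3.73) and RPL3 (3.69). It was also higher for CKS1 (4.85), PEX14 (4.5), CPS1 (4.18), YGP1 (4.02), CWP2 (3.30), GDH3 (2.88) and APE3 (2.27). The largest fitted differences rest on groups at or near 0 or on 1 library, and their size is no measure or bound of a change. PHO12 (10.03) was at 0 CPM in all S. cerevisiae M2 libraries, and SYF2 (9.71) was at 0 to 1.4 CPM there. EGT2 (6.69) had at most 5 counts in any of the 8 hybrid libraries, and its value was 4.62 without hybrid M2 replicate 1 (adjusted p = 0.452, edgeR). Without hybrid M2 replicate 3 the value of YHR050W-A (8.19) was 4.27 (adjusted p = 0.273). Without S. cerevisiae M1M2 replicate 2 the value of SMM1 (7.57) was 3.08 (adjusted p = 0.463), that of YER152W-A (6.74) was 1.98 (adjusted p = 0.853) and that of CKS1 was 1.52 (adjusted p = 0.823). PHO12, RPL2B, SSB1 and RPS0A have nearly identical copies, so how their reads were split is uncertain, and TEF4 overlaps a small nucleolar RNA gene in R64.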

How the results depend on the processing

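The step called 21 genes, 20 higher and 1 lower. With size factors it called 87 (85 higher, 2 lower), with the 8 hybrid libraries alone 58 (57 higher), with the 16 hybrid libraries alone 43 (38 higher, 5 lower), with DESeq2 287 (253 higher, 34 lower) and with voom and quality weights 388 (257 higher, 131 lower). Genes lower at M2 numbered 2 without a filter and 3 without the 4 shallow libraries. With 1 library left out, calls ran between 8 and 22, those higher between 8 and 21 and those lower between 0 and 2. The difference from the S. cerevisiae step ran between 26 and 89 calls with 1 library left out, against 88, and DESeq2 gave 242. That from S. paradoxus stayed at 0 with each of 14 libraries left out and was 8 with DESeq2. The allele test stayed at 0 with each hybrid library left out. The cause of these shifts was not tested. With the replicate number as a block within genotype, though the numbers do not pair the libraries, 20 genes passed, 16 of them among the 21, and 68 differed from S. cerevisiae (34 higher and 34 lower in the hybrid, against 66 and 22 without the block) and 0 from S. paradoxus. With the 16 hybrid libraries and the replicate block, chosen after seeing the data, 36 passed (32 higher, 4 lower). Over 111 named-gene results and 1964 alternatives none reversed, 335 lost the call and 40 gained it. Depth limits M2 replicate 3, where 1 count is 10.8 CPM.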
